A study of Mus musculus with 40 samples.

Results

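Hepatocyte identity is held by a small set of transcription factors, and 9 of them were followed here in liver RNA from mice that lack Nampt in hepatocytes. They were taken by name from the 55487 genes of the count table: Hnf4a, Cebpa, Foxa1, Foxa2, Foxa3, Onecut1, Prox1, Nr5a2, and Nr1i3. All 9 were measured in every library and were among the 20297 genes that passed the filter on low counts. As the mean of the 4 sampled days, Nr1i3, Nr5a2, Cebpa, Foxa1, and Foxa2 were lower in knockout livers and Foxa3 was higher. The differences for Hnf4a, Onecut1, and Prox1 did not pass this test, which 36.4% of all tested genes passed. On single days, only Cebpa at day 3 and Nr1i3 at day 6 passed.

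Whole livers were taken from female mice of the C57BL/6JBomTac background. Hepatocyte-specific Nampt knockout (HNKO) mice carried Nampt fl/fl alleles and Alb-Cre+/-, and WT mice were littermates with floxed alleles and no Cre. All mice received a purified control diet (PD) from 9 weeks of age and were killed on day 3, 6, 12, or 21 of feeding, which the labels enter as age. Of 40 libraries, HNKO libraries 17 and 18 of day 21 failed quality control and were left out. In order of day, the WT groups then held 5, 4, 5, and 5 libraries and the HNKO groups 5, 5, 6, and 3, each library from 1 mouse. Alb-Cre acts in hepatocytes, and RNA of all other liver cells is included in every library.

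Total counts of the 38 libraries ranged from 16151037 to 64181492. Nampt, which checks the labels, was lower in HNKO at each day, with log2 fold changes between -0.93 and -0.69 and adjusted p-values of 0.0193, 0.0128, 0.0208, and 0.161 at days 3, 6, 12, and 21 (edgeR). Numbering of the libraries starts again at day 3 after number 21, which gives a first series (1 to 21, 18 libraries) and a second (22 to 41, 20 libraries), and all 3 HNKO libraries of day 21 are from the second. The labels do not say what the series are. Summed hepatocyte markers, 11 genes such as Alb and Ttr, were between 115933 and 175580 CPM (counts scaled to library size) in WT and between 76977 and 153379 in HNKO libraries. In whole liver, fewer hepatocytes and less RNA per hepatocyte cannot be told apart.

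HNF4A is a nuclear receptor that binds the regulatory regions of a large share of hepatocyte genes. The forkhead factors FOXA1, FOXA2, and FOXA3 open chromatin for other factors, and C/EBPα and HNF6 (encoded by Onecut1) act with them on metabolic genes and in the choice between hepatocyte and bile duct cell, which derive from the same fetal progenitor. PROX1 acts mainly as a corepressor of HNF4A and of LRH-1 and is needed for hepatocyte development. Nr5a2 encodes LRH-1, a nuclear receptor of bile acid and cholesterol metabolism, and Nr1i3 encodes the constitutive androstane receptor (CAR), a nuclear receptor that turns on drug-metabolizing enzymes.

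The genes lie apart from each other in the genome (GRCm38, GENCODE M21 positions). Hnf4a (ENSMUSG00000017950.16) is at chr2:163506808-163572910 on the plus strand, Foxa2 (ENSMUSG00000037025.11) is at chr2:148042877-148046969 on the minus strand, and Cebpa (ENSMUSG00000034957.10) is at chr7:35119293-35121928 on the plus strand. Foxa3 (ENSMUSG00000040891.6) occupies chr7:19013284-19023538 on the minus strand, Foxa1 (ENSMUSG00000035451.7) chr12:57540628-57546916 on the minus strand, and Onecut1 (ENSMUSG00000043013.10) chr9:74861921-74891781 on the plus strand. Chromosome 1 holds Nr5a2 (ENSMUSG00000026398.14) at 136842571-136960448 and Prox1 (ENSMUSG00000010175.13) at 190118035-190170714, both on the minus strand, and Nr1i3 (ENSMUSG00000005677.14) at 171213970-171220701 on the plus strand. All 9 are protein coding.

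Nr1i3 is read less completely than the other factors. Of its 4414 exon bases, 3304 overlap exons of Tomm40l on the opposite strand, and the table behaves as one counted without strand and without fragments shared by 2 genes: of 457 genes that lie wholly inside exons of an opposite-strand gene, 3 had any count. Nr1i3 values therefore rest on 1110 bases. Onecut1 shares 2171 of 4113 exon bases with Gm20649, a same-strand noncoding gene with a median count of 0, so that its values rest on 1942 bases. Prox1 shares 133 bases with Prox1os and Cebpa 51 bases with Gm45091, and the other 5 genes share none.

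Because several of the genes varied together, the 250 bases upstream of a RefSeq start site (GRCm38.p6) were searched for sequence motifs. The motifs were those of these factors and of the circadian clock. For each gene, the window described is that of the site nearest the start of the gene model. Hnf4a, Foxa2, Prox1, and Nr5a2 have further sites, with 0 matches in their windows. The Hnf4a site described is 49 bases from the start of the model, and its other site is 40347 bases from it. Which site is used in these livers was not tested. The sequences of 4 genes are printed 5′ to 3′ on the strand of the gene, with the motif match in capitals, up to the base before the gene model begins. They are chr2:148046970-148047219 (Foxa2, minus strand), chr2:163506607-163506807 (Hnf4a, plus strand), chr7:19023540-19023789 (Foxa3, minus strand), and chr1:171213720-171213969 (Nr1i3, plus strand).
Foxa2: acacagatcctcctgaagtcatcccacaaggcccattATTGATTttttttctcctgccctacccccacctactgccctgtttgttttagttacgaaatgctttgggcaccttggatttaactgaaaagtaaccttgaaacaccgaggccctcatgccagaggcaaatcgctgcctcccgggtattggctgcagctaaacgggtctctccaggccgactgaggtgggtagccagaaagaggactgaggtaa
Hnf4a: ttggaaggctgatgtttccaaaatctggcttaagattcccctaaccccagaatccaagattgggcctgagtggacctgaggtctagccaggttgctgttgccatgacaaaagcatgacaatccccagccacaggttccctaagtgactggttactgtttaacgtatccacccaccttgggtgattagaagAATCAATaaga
Foxa3: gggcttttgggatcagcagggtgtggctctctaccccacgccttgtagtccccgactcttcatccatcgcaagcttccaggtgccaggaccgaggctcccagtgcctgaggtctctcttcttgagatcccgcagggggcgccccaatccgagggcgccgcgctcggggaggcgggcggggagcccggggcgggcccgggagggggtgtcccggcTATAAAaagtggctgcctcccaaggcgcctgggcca
Nr1i3: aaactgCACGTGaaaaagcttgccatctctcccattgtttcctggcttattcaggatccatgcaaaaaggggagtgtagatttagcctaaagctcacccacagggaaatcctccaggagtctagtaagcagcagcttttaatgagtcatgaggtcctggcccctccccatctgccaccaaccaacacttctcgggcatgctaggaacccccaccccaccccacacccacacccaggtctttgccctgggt

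In the Foxa2 sequence, the capitals mark the HNF6 motif ATTGATT, 213 to 207 bases upstream, and in the Hnf4a sequence they mark the same motif on the other strand, 60 to 54 bases upstream. This motif is in 2.61% of the 32851 upstream windows of all genes when both strands are searched. Foxa3 has a TATA box (TATAAA, given strand only) 36 to 31 bases upstream, found in 7.59% of windows, and Cebpa has another 30 to 25 bases upstream. The Nr1i3 capitals are the E-box CACGTG, 244 to 239 bases upstream, which is in 6.02% of windows and also in the Onecut1 window. Foxa1 holds the FOXA motif TGTTTAC on the other strand 141 to 135 bases upstream (3.17% of windows). Its window lies wholly inside the gene model, as its RefSeq start site is 805 bases from the start of the model. No motif of those searched was found for Prox1. None of the 9 windows holds the HNF4 motif CAAAGTCC (1.2% of all windows), the C/EBP motif TTGCGCAA (0.164%), the LRH-1 motif CAAGGTCA (1.33%), or the D-box TTANGTAA (2.06%). A match describes the letters of a window and is not evidence of binding.

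In WT livers, Cebpa and Hnf4a were the most abundant of the 9 per length of unshared exon. Cebpa was at 6.75 ± 0.21 log2 CPM per kilobase (SD, n = 19) and Hnf4a at 6.72 ± 0.18. Cebpa was the higher of both in 12 of 19 WT libraries, which is no clear order. Nr1i3 followed at 6.39 ± 0.52 and was below Hnf4a in 13 of 19 libraries. Prox1 was at 4.62 ± 0.31, below Nr1i3 in 19 of 19 libraries. The place of Nr1i3 depends on the length used, since over all its exon bases it was at 4.40 and Prox1 at 4.60.

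Nr5a2 was at 4.40 ± 0.11 log2 CPM per kilobase, below Prox1 in 14 of 19 libraries, and Foxa3 at 4.03 ± 0.39, below Nr5a2 in 15 of 19. Foxa3 exceeded Foxa2 (3.51 ± 0.29) in 19 of 19 libraries, so that Foxa3 was the leading Foxa gene in WT liver. Onecut1 was at 3.00 ± 0.79 and below Foxa2 in 15 of 19 libraries. Foxa1 was the lowest, at 1.84 ± 0.27, below Onecut1 in 19 of 19. Over all exon bases, shared ones included, Onecut1 was at 1.92 log2 CPM per kilobase, next to Foxa1, so this part of the order depends on the length used. The differences between neighbours were smaller than their own SD over libraries for Cebpa and Hnf4a, Hnf4a and Nr1i3, Prox1 and Nr5a2, Nr5a2 and Foxa3, and Foxa2 and Onecut1.

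The genes also differed in how far single livers spread. Nr5a2 was the steadiest, with a range of 0.78 over the 38 libraries on the log2 CPM scale and a mean SD within WT groups of 0.11. Onecut1 was the most variable, with a range of 3.16 and a mean SD within WT groups of 0.81. Nr1i3 followed with a range of 2.74 and a mean SD of 0.51. The lowest and highest counts were 130 and 1392 for Onecut1 and 1807 and 7949 for Nr5a2, and 137 and 872 for Foxa1, the lowest of the 9 per length, which had a mean SD of 0.21.

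**Figure D1:**
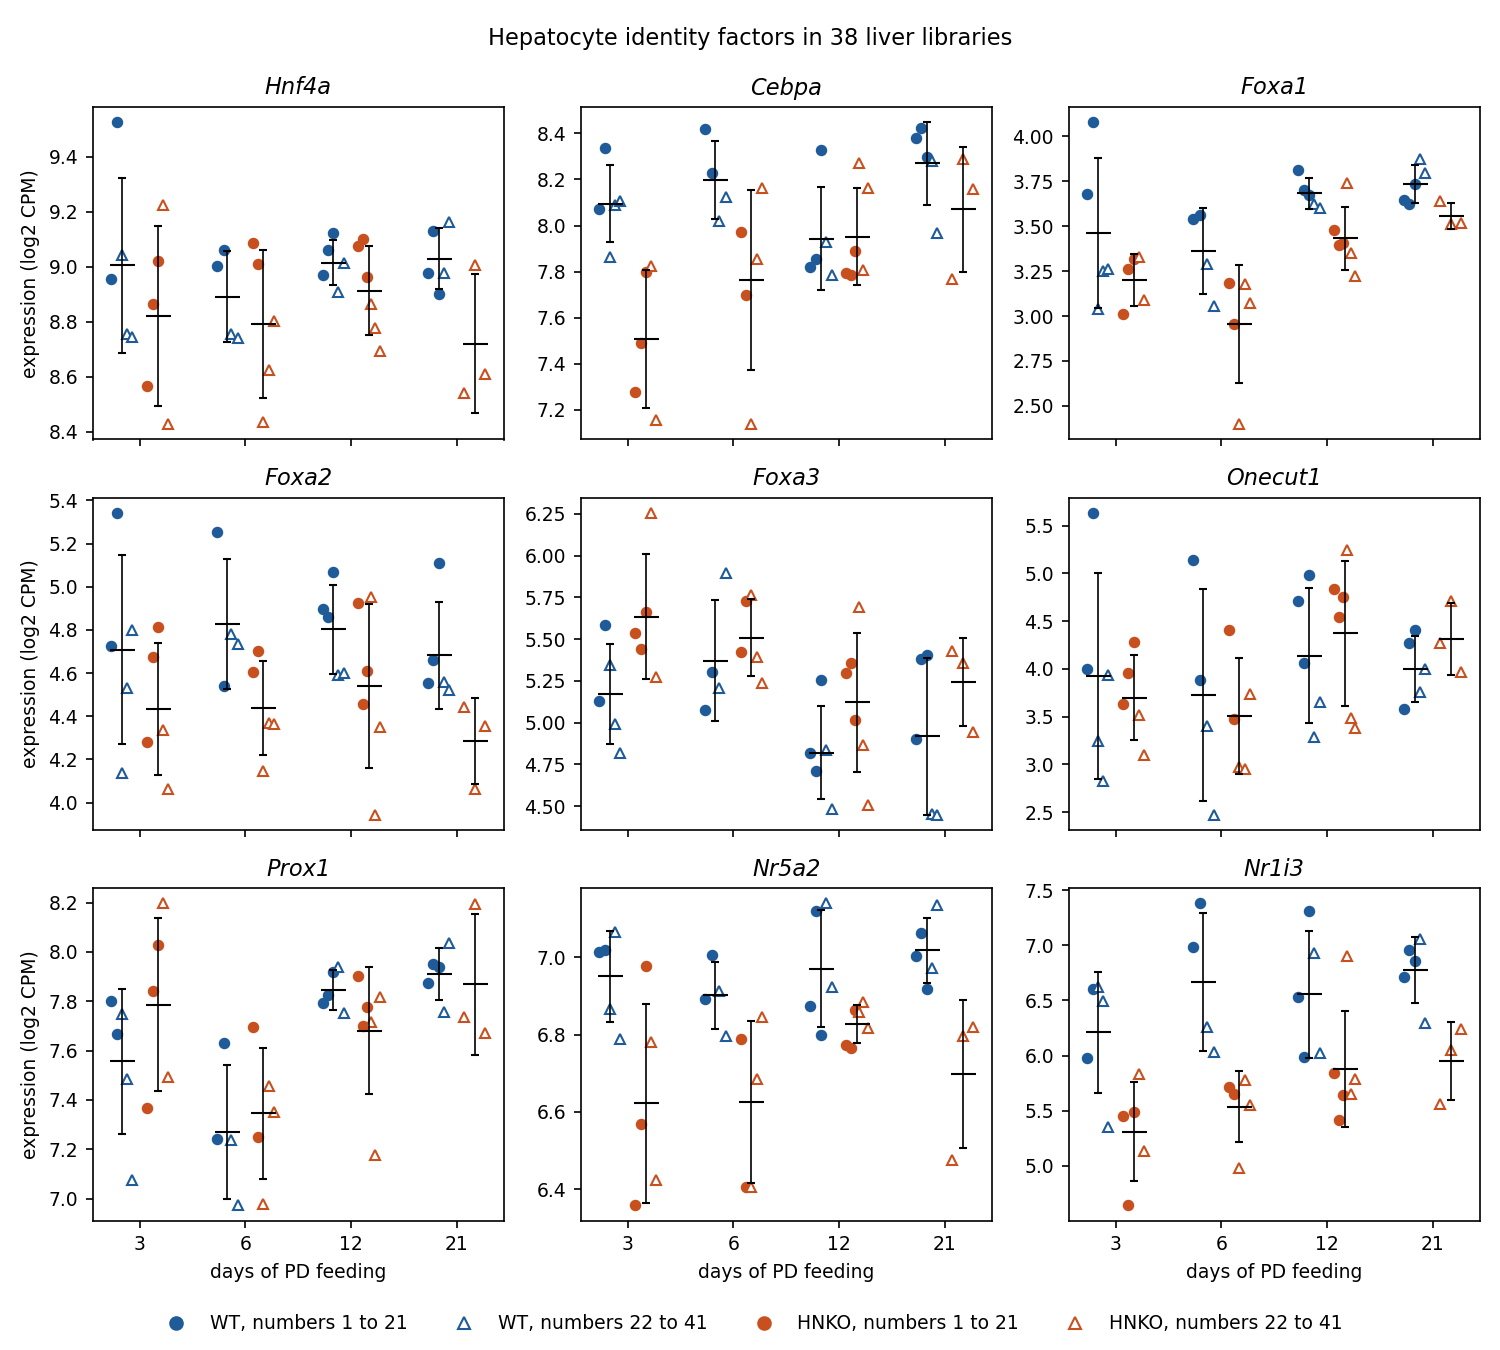
Expression (log2 CPM, y axis) of the 9 factors by day of PD feeding (x axis) in 19 WT (blue) and 19 HNKO (orange) livers, 1 point per library, filled for library numbers 1 to 21 and open for 22 to 41, with bars for the group mean and SD. The HNKO mean lies below the WT mean for Nr1i3 at all 4 days, with overlap of libraries at days 3 and 12. For Cebpa it lies below at days 3, 6, and 21 (8.07 against 8.27 at day 21) and next to the WT mean at day 12. For Onecut1 the filled points of WT lie above the open ones at days 3, 6, and 12.

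Nr1i3 was the factor with the largest difference between genotypes. At day 3, the WT libraries were at 5.35, 5.98, 6.49, 6.61, and 6.63 log2 CPM and the HNKO libraries at 4.64, 5.14, 5.45, 5.49, and 5.83. At day 6, WT libraries were at 6.04, 6.26, 6.98, and 7.38 and HNKO libraries at 4.98, 5.55, 5.65, 5.72, and 5.78. At day 3, WT library 26 lay inside the range of HNKO, whereas at day 6 the genotypes did not overlap. The log2 fold changes were -0.92 (edgeR, SE 0.29, adjusted p = 0.0564) at day 3 and -1.21 (edgeR, SE 0.30, adjusted p = 0.00756) at day 6, where HNKO had 0.434 of the WT level.

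At day 12, WT libraries were at 5.99, 6.02, 6.53, 6.93, and 7.31 log2 CPM, and the 6 HNKO libraries had a lowest value of 5.42, a median of 5.72, and a highest value of 6.91. At day 21, WT libraries were at 6.30, 6.71, 6.85, 6.96, and 7.06 and HNKO libraries at 5.56, 6.05, and 6.24. HNKO library 32 alone reached into the WT range at day 12, and the genotypes did not overlap at day 21. The log2 fold changes of -0.68 (edgeR, SE 0.27, adjusted p = 0.115) and -0.82 (edgeR, SE 0.34, adjusted p = 0.182) did not pass the threshold at these days. Without library 32, the day 12 difference was -0.97 and passed (adjusted p = 0.0190, edgeR).

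As the mean of the 4 days, Nr1i3 fell by 0.91 on the log2 scale (edgeR, SE 0.15, adjusted p = 1.73e-05), to 0.534 of the WT level. It was lower in HNKO in 7 of 7 comparisons within a day and series of library numbers. Within the second series alone, its mean of -0.62 did not pass (adjusted p = 0.0555, edgeR). Tomm40l, whose exons cover most of Nr1i3 on the other strand, fell as well, with a log2 difference of -0.47 (SE 0.11, adjusted p = 0.000982, edgeR). The day 6 call was lost without WT library 10 (log2 fold change -0.92, adjusted p = 0.0606), and its adjusted p was between 0.000384 and 0.0238 over the 9 other settings.

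Cebpa, which encodes a factor of gluconeogenic and urea cycle genes, was lower in HNKO early. At day 3, WT libraries were at 7.87, 8.07, 8.09, 8.11, and 8.34 log2 CPM and HNKO libraries at 7.16, 7.28, 7.49, 7.80, and 7.82, with no overlap. This is a difference of -0.57 (edgeR, SE 0.15, adjusted p = 0.0282). The call was lost without any 1 of HNKO libraries 2, 3, and 23 and WT libraries 5 and 25, with adjusted p-values of 0.0963, 0.0645, 0.103, 0.0754, and 0.0620, and with the 2 failed libraries included (0.0564) or in a fit of the day 3 libraries alone (0.0585).

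At day 6, WT libraries were at 8.02, 8.12, 8.23, and 8.42 and HNKO libraries at 7.14, 7.70, 7.85, 7.97, and 8.16, so that 4 of 5 HNKO libraries lay below every WT library. The difference at day 6 was -0.40 (edgeR, SE 0.16, adjusted p = 0.0975). At day 12 the difference was close to 0, at 0.0080 (SE 0.15, adjusted p = 0.982), with means of 7.94 ± 0.22 in WT and 7.95 ± 0.21 in HNKO (SD, n = 5 and 6). At day 21 it was -0.19 (SE 0.18, adjusted p = 0.630). The test of whether the Cebpa difference itself changes with day gave an unadjusted p of 0.0576 and an adjusted p of 1.0 (edgeR), and the mean of the 4 days was -0.29 (SE 0.080, adjusted p = 0.00461).

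Nr5a2 showed a small difference with little spread. At day 3, WT libraries were at 6.79, 6.87, 7.02, 7.02, and 7.07 log2 CPM and HNKO libraries at 6.36, 6.42, 6.57, 6.78, and 6.98. At day 21, WT libraries were at 6.92, 6.97, 7.003, 7.06, and 7.14 and HNKO libraries at 6.48, 6.80, and 6.82. The genotypes overlapped through HNKO library 4 at day 3 and did not overlap at day 21. The log2 fold changes at days 3, 6, 12, and 21 were -0.31, -0.27, -0.15, and -0.32, with adjusted p-values of 0.0593, 0.0964, 0.346, and 0.129 (edgeR). None passed on its own day in edgeR with all 38 libraries. DESeq2 called Nr5a2 at day 3, and edgeR called it at day 3 without any 1 of HNKO libraries 4, 22, and 29 and WT library 26, and at day 6 without HNKO library 31. The mean of the 4 days was -0.26 (SE 0.053, adjusted p = 0.000183), which is 0.834 of the WT level, and Nr5a2 was lower in 7 of 7 comparisons within a day and series. It was the 1 factor called in all 11 other settings of this comparison, with adjusted p-values between 1.05e-05 and 0.0385.

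The 3 Foxa genes did not move the same way. Foxa2 was lower, with WT libraries at 4.52, 4.55, 4.56, 4.66, and 5.11 log2 CPM and HNKO libraries at 4.06, 4.36, and 4.44 at day 21, and with no overlap on that day. Its log2 fold changes were -0.31, -0.40, -0.23, and -0.41 at days 3, 6, 12, and 21 (SE 0.19, 0.20, 0.18, and 0.22), and none passed (lowest adjusted p = 0.182, edgeR). The mean of the 4 days was -0.34 (SE 0.097, adjusted p = 0.00630), and Foxa2 was lower in 7 of 7 comparisons within a day and series, with differences between -0.46 and -0.18. The call of the mean was lost within each series. It was -0.33 in the first (days 3, 6, and 12) and -0.29 in the second (adjusted p = 0.0883 and 0.0953, edgeR).

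Foxa1 differed by about as much. At day 12, WT libraries were at 3.60, 3.62, 3.67, 3.70, and 3.82 log2 CPM, and the HNKO libraries had a lowest value of 3.22, a median of 3.40, and a highest value of 3.74, with 5 of 6 below every WT library. The log2 fold changes were -0.31, -0.40, -0.25, and -0.18 at days 3, 6, 12, and 21 (lowest adjusted p = 0.0832, edgeR), and the mean of the 4 days was -0.28 (SE 0.076, adjusted p = 0.00336). It was lower in 6 of 7 comparisons within a day and series, and its mean within the second series, -0.17, did not pass (adjusted p = 0.253, edgeR).

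Foxa3 was higher in HNKO livers. At day 3, WT libraries were at 4.82, 4.99, 5.13, 5.35, and 5.58 log2 CPM and HNKO libraries at 5.27, 5.44, 5.54, 5.66, and 6.26. At day 12, WT libraries were at 4.48, 4.71, 4.82, 4.84, and 5.25, and the HNKO libraries had a lowest value of 4.505, a median of 5.16, and a highest value of 5.69. The genotypes overlapped at every day. The log2 fold changes of 0.48, 0.12, 0.33, and 0.28 did not pass at any day (lowest adjusted p = 0.183, edgeR), whereas the mean of the 4 days, 0.30 (SE 0.11, adjusted p = 0.0323), passed. That call was lost without WT libraries 8, 27, or 41 or HNKO libraries 22 or 37, with log2 fold changes of 0.28, 0.29, 0.27, 0.25, and 0.29 and adjusted p-values of 0.0571, 0.0506, 0.0515, 0.0612, and 0.0593. It was also lost over days 3, 6, and 12 alone (0.31, adjusted p = 0.0545, edgeR) and within each series (0.29 and 0.48, adjusted p = 0.0710 and 0.0570).

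The balance among the Foxa genes is given per library as the log2 ratio of their CPM, a difference of log2 CPM values in which the scaling of the library largely cancels. The ratio of Foxa3 to Foxa2 was 0.46 ± 0.45, 0.54 ± 0.57, 0.018 ± 0.19, and 0.24 ± 0.34 in WT and 1.20 ± 0.46, 1.07 ± 0.32, 0.58 ± 0.32, and 0.96 ± 0.35 in HNKO at days 3, 6, 12, and 21 (SD over the libraries of each group). The ratio of Foxa3 to Foxa1 was higher in HNKO by 0.72, 0.54, 0.55, and 0.50 at these days. For Foxa1 to Foxa2, HNKO minus WT was 0.015, -0.016, 0.013, and 0.22. The mean ratio of Foxa3 to each of the other two was thus higher in HNKO at each of the 4 days, by more than the WT SD at days 3 and 12 for both and at day 21 for Foxa2 alone, and between Foxa1 and Foxa2 the day means differed by less than the WT SD. These ratios were chosen after the directions of the 3 genes were seen and are given without a test.

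Hnf4a was a little lower in HNKO and missed the threshold. Its 19 WT libraries were between 8.74 and 9.52 log2 CPM and its 19 HNKO libraries between 8.43 and 9.22. The log2 fold changes at days 3, 6, 12, and 21 were -0.18, -0.086, -0.096, and -0.30 (adjusted p = 0.494, 0.775, 0.712, and 0.359, edgeR). The mean of the 4 days was -0.17 (SE 0.075, adjusted p = 0.0812), with an approximate 95% interval of -0.31 to -0.019. Its antisense neighbour Hnf4aos, which overlaps the gene but shares no exon base with it, was lower by more, at -0.62 (SE 0.18, adjusted p = 0.00686).

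Onecut1 and Prox1 had no difference that could be told from the spread. WT libraries of Onecut1 were at 2.82, 3.24, 3.93, 3.997, and 5.64 log2 CPM at day 3 and at 2.47, 3.41, 3.88, and 5.14 at day 6, and HNKO libraries lay between 3.10 and 4.28 and between 2.95 and 4.41. The WT range enclosed that of HNKO at both days. Its mean of the 4 days was -0.10 (SE 0.23, adjusted p = 0.770, approximate 95% interval -0.55 to 0.35), and this turned to 0.074 without WT library 5 and to 0.070 without WT library 8. For Prox1 the mean was 0.035 (SE 0.080, adjusted p = 0.772, interval -0.12 to 0.19), with a HNKO group mean above that of WT at days 3 and 6 and below at days 12 and 21. Neither genotype difference was called in any of the 11 other settings of the mean, and the intervals leave room for changes of the size seen for Nr5a2 in Onecut1 but not in Prox1.

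Counted by day, 1 of the 9 factors was called at day 3 (Cebpa, lower), where 4.66% of all tested genes were called and 1.71% were lower, and 1 at day 6 (Nr1i3, lower), where 12.8% were called and 4.37% were lower. DESeq2 called 3 at day 3 (Cebpa, Nr5a2, and Nr1i3). None was called at days 12 and 21 (edgeR), where 7.82% and 3.12% of all genes were called and 3.27% and 0.916% were lower, and DESeq2 called none there either. At an unadjusted p under 0.05, the counts were 5, 5, 1, and 2 of 9 beside 4235, 5405, 4965, and 3655 of all 20297 genes. As the mean of the 4 days, 5 of 9 were lower and 1 was higher, against 17.3% of all genes lower and 19.2% higher. The median log2 fold change of the 9 was -0.26 beside -0.0064 over all tested genes. Genotypes did not overlap for 1 of 9 factors at day 3 (4.11% of all genes), 1 at day 6 (12.8%), 0 at day 12 (4.79%), and 3 at day 21 (Foxa2, Nr5a2, and Nr1i3; 13.9%). No interaction of genotype and day was called for any of the 9 (edgeR), nor for any of the 20297 genes (0.0%; 966 genes at an unadjusted p under 0.05, 16 genes by DESeq2).

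**Figure D2:**
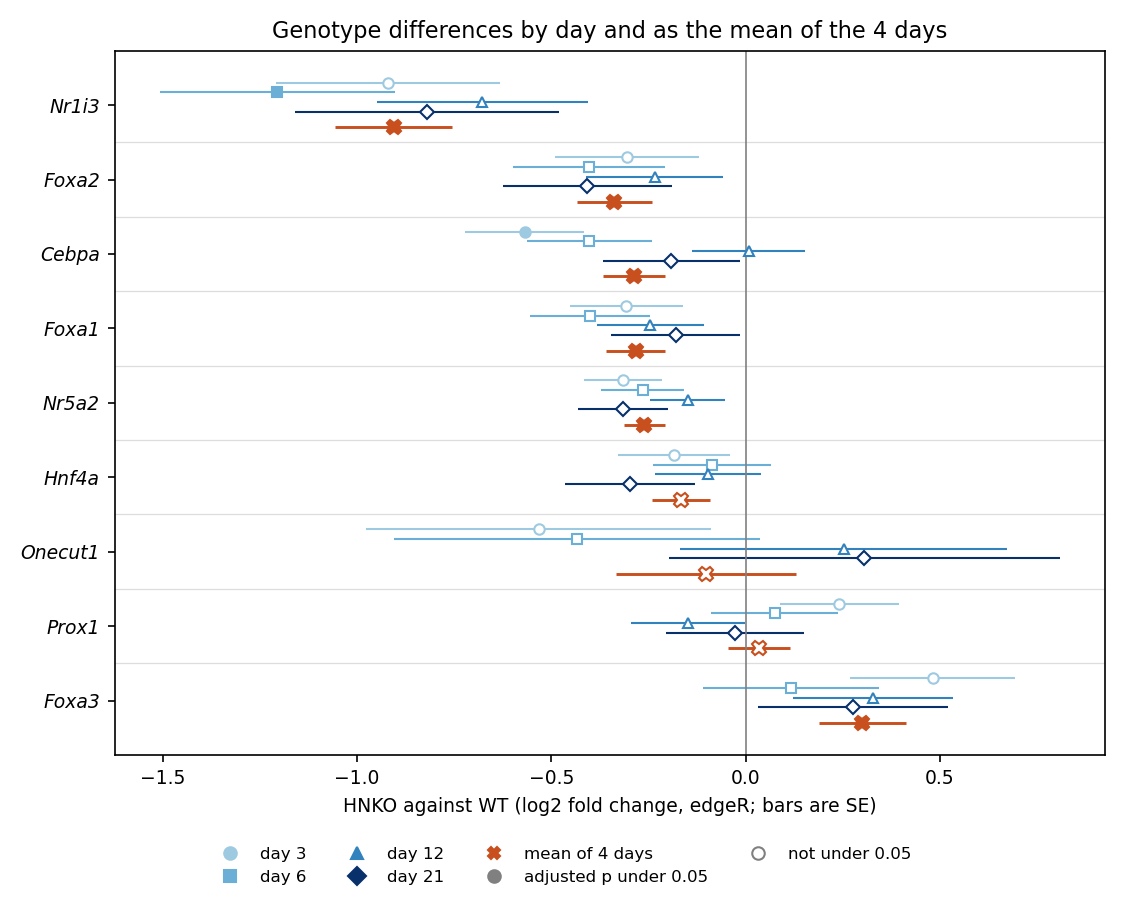
Log2 fold change of HNKO against WT (x axis) for each factor (y axis) at days 3, 6, 12, and 21 and as the mean of the 4 days (orange crosses), with SE bars; filled symbols mark an adjusted p under 0.05 (edgeR). The mean lies below 0 for 7 factors, farthest for Nr1i3 at -0.91, and above 0 for Foxa3 at 0.30 and Prox1 at 0.035.

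Because the library numbers form 2 series, the genotypes were also compared within each. Of 7 such comparisons per gene, Hnf4a, Cebpa, and Foxa1 were lower in HNKO in 6, Foxa3 was higher in 6, and Onecut1 and Prox1 were each higher in 4. Onecut1 itself differed between the series, with the second 0.89 lower on the log2 scale (SE 0.19, adjusted p = 0.000990), as did Foxa2 (-0.33, SE 0.084, adjusted p = 0.00447) and Hnf4a (-0.19, SE 0.070, adjusted p = 0.0433), so that 3 of 9 factors were lower in the second series against 10.7% of all genes. The genotype difference was not called different between the series for any of the 9 factors or of the 20297 genes (0.0%; edgeR, 930 genes at an unadjusted p under 0.05), and DESeq2 was not run on this contrast. Within the second series alone, only Nr5a2 of the 9 passed as the mean of the 4 days, and within the first (days 3, 6, and 12) Cebpa, Foxa1, Nr5a2, and Nr1i3 did. The genotypes cannot be compared in the first series at day 21.

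**Figure D3:**
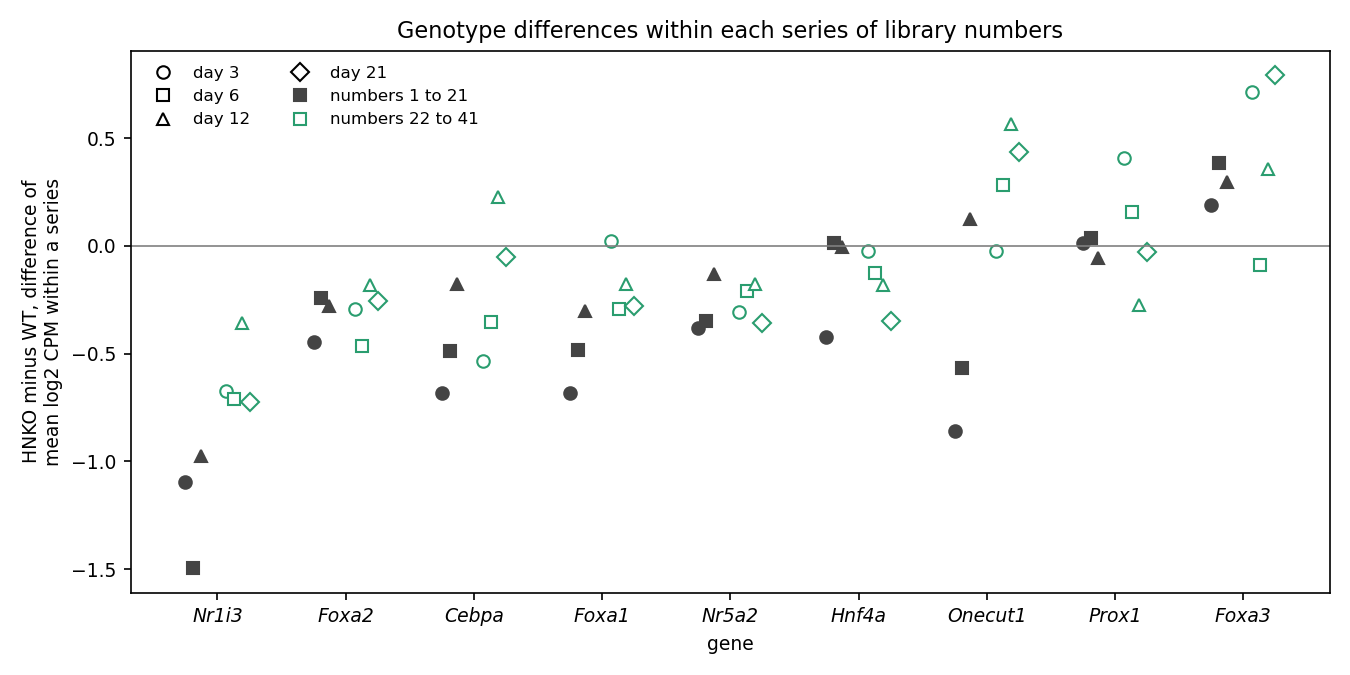
Difference of HNKO and WT mean log2 CPM (y axis) for each factor (x axis) at each day within library numbers 1 to 21 (filled) and 22 to 41 (open). All 7 points lie below 0 for Nr1i3, Foxa2, and Nr5a2, and 6 of 7 lie above 0 for Foxa3.

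Over the feeding period itself, Prox1 varied in WT livers (adjusted p = 0.0429 for a day effect, edgeR), where 5.84% of genes did. Its WT means were 7.56 ± 0.29, 7.27 ± 0.27, 7.85 ± 0.081, and 7.91 ± 0.11 at days 3, 6, 12, and 21, lowest at day 6. In HNKO, Foxa1 varied (adjusted p = 0.0456, where 7.9% of genes did), with means of 3.20 ± 0.14, 2.96 ± 0.33, 3.43 ± 0.17, and 3.56 ± 0.073, again lowest at day 6. Both calls were weak: they held in 21 and in 18 of the 38 fits that left out 1 library, with adjusted p-values between 0.0208 and 0.122 for Prox1 and between 0.0164 and 0.119 for Foxa1. The other 8 factors in WT and the other 8 in HNKO were not called. Age and time on PD cannot be told apart here.

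Within groups, about as many pairs of factors passed a test of covariation from liver to liver as did not. Over 36 pairs, the correlation of deviations from the group mean (38 libraries) was positive for 35, with a median Pearson r of 0.407, and 17 pairs passed after adjustment over the 36 (100000 permutations within groups), or 12 by Spearman's rho. With deviations and permutations taken within each genotype, day, and series of library numbers, an alternative added after the data were seen, 10 of the 17 passed (9 pairs by rho), and no other pair did. An r at or above that of the weakest passing pair (0.41) was found for 9.21% of all pairs of a factor with any other tested gene, where the median r was -0.024. The points share the depth and composition of their libraries.

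Foxa2 and Onecut1 were the closest pair, with r = 0.76 and rho = 0.75 (permutation p = 1e-05, the smallest they can give, adjusted p = 0.00036). Without the 2 libraries farthest from the median, r was 0.70, and within the 2 series it was 0.73 and 0.58. Hnf4a went with Prox1 (r = 0.69, rho = 0.66, permutation p = 0.000300, adjusted 0.00238), with r = 0.54 and 0.73 within the series and 0.69 without the 2 farthest. Onecut1 also went with Foxa1 (r = 0.69, rho = 0.64) and Hnf4a (r = 0.63, rho = 0.64), both with permutation p = 7e-05 and adjusted p = 0.00084, at 0.62 and 0.61 without the 2 farthest libraries. Within the series these were 0.72 and 0.59, and 0.61 and 0.43.

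Cebpa and Nr1i3 formed another close pair (r = 0.58, rho = 0.58, permutation p = 0.000330, adjusted 0.00238; 0.59 and 0.56 within the series, 0.58 without the 2 farthest). Cebpa and Nr5a2 reached r = 0.54 and rho = 0.51 (permutation p = 0.00783, adjusted 0.0246; 0.41 and 0.67 within the series, 0.44 without the 2 farthest; adjusted permutation p = 0.0505 with the series removed as well), with r = -0.18 over the WT libraries and 0.81 over the HNKO libraries, a difference that was not tested. None of the 8 pairs of Foxa3 passed, its r ranged from -0.12 with Nr5a2 to 0.35 with Hnf4a, and with Foxa1 it was 0.084. In deviations from the mean of each genotype, day, and series, its r was 0.51 with Nr1i3, 0.46 with Hnf4a, and -0.069 with Nr5a2 (adjusted permutation p = 0.0566, 0.137, and 0.767).

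**Figure D4:**
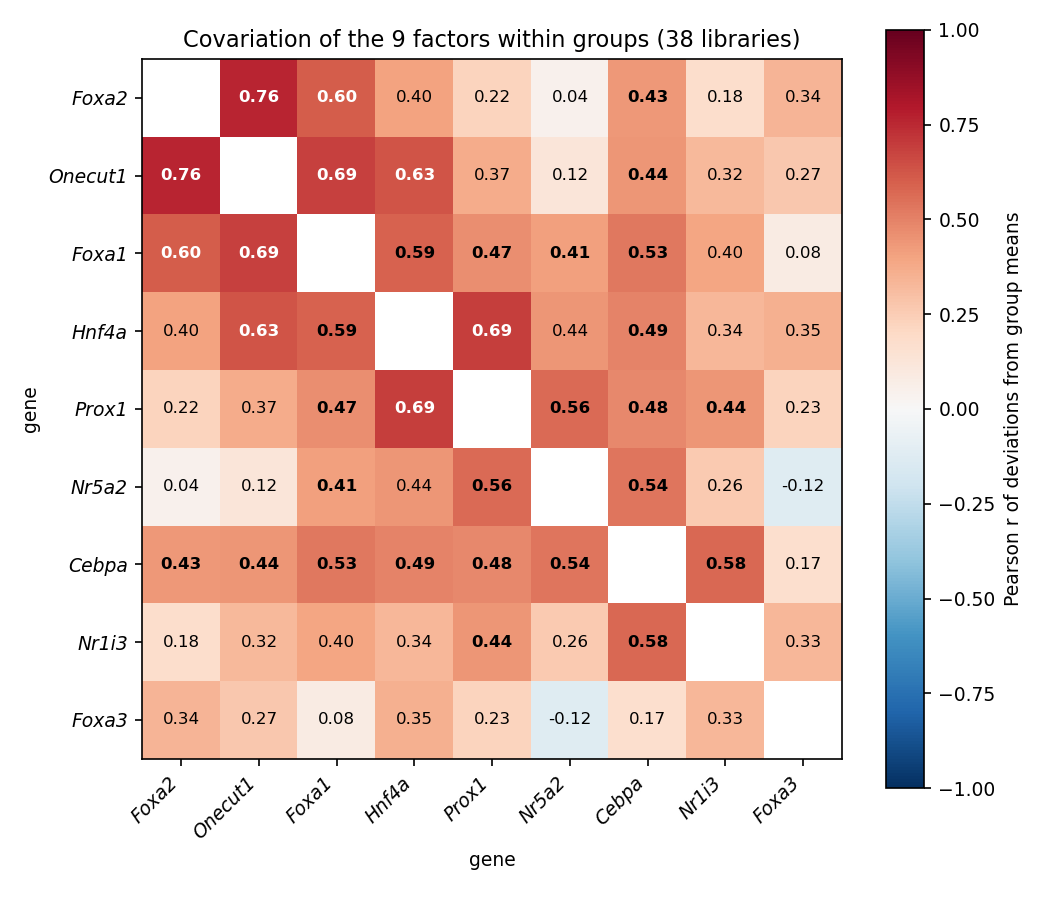
Pearson r of deviations from the group mean over 38 libraries for each pair of the 9 factors (both axes, color from -1 to 1); bold values passed at an adjusted p under 0.05. The pairs among Foxa2, Onecut1, Foxa1, and Hnf4a have r from 0.40 to 0.76 (0.19 to 0.69 with the series mean removed as well, lowest for Hnf4a with Foxa2), and the Foxa3 row runs from -0.12 to 0.35.

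Across all tested genes, the closest neighbors of each factor in the same deviations were mostly other than the factors. For Hnf4a they were Hrg (r = 0.84), Eif4g1 (0.84), and Gjb2 (0.84), of which Hrg encodes a plasma glycoprotein of hepatocytes and Gjb2 a gap junction protein. Gjb2 (0.76) also followed Prox1, with Hc (0.76) and Gphn (0.76), whereas the lowest r of Prox1 was with the bile duct marker Tspan8 (-0.82). Foxa2 followed Phlda1 (0.82), Nedd8 (0.79), and Onecut1 (0.76), and Onecut1 followed Zfp768 (0.82), Pa2g4 (0.82), and Ppp1r37 (0.81). Cebpa followed D10Jhu81e (0.88), Scrn2 (0.87), and Gcdh (0.87), Nr5a2 followed Sdc2 (0.86), Bco2 (0.85), and Fam214a (0.85), and Nr1i3 followed Arhgef12 (0.88), Fbxo21 (0.86), and Pdpr (0.86). Foxa1 had AI464131 (0.78), 5330438I03Rik (0.75), and Tgfbrap1 (0.72), and Foxa3 had Nrp1 (0.79), Ddx19b (0.73), and Vars2 (0.71). The lowest r was -0.84 for Hnf4a (Zfp974), -0.89 for Cebpa (Cep170), -0.73 for Foxa1 (Sept10), -0.74 for Foxa2 (Rc3h2), -0.77 for Foxa3 (Dennd2d), -0.84 for Onecut1 (Mpp7), -0.83 for Nr5a2 (Uap1l1), and -0.86 for Nr1i3 (Sytl5). These genes were picked as the extremes of 20297, over the same 38 libraries, and no p is given.

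Hepatocyte markers moved with 8 of the 9 factors. In the same deviations, the mean log2 CPM of the 11 hepatocyte markers had r = 0.76 (rho 0.70) with Cebpa, 0.75 (rho 0.76) with Hnf4a, 0.69 (rho 0.65) with Nr5a2, and 0.66 (rho 0.64) with Prox1, and 8 of 9 factors passed after adjustment over 27 tests, where 12.5% of the 20297 tested genes had an r at or above that of the weakest of the 8 (permutation p = 5e-05, 2e-05, 0.00050, and 0.000190 for these 4, adjusted 0.00045, 0.00027, 0.00123, and 0.000641). Without the 2 farthest libraries the 4 values were 0.66, 0.68, 0.64, and 0.60, and within the series they were 0.78 and 0.76, 0.70 and 0.71, 0.67 and 0.86, and 0.67 and 0.60. For the other 4 that passed, the values within the series were 0.50 and 0.52 for Foxa1, 0.44 and 0.30 for Foxa2, 0.48 and 0.35 for Onecut1, and 0.37 and 0.50 for Nr1i3. With the series removed as well, 7 of the 8 passed, and Foxa2 did not (r = 0.33, adjusted permutation p = 0.0550). By rho, 5 passed there, and Foxa1, Foxa2, and Onecut1 did not (adjusted permutation p = 0.0976, 0.0976, and 0.0833). Foxa3 was the 1 factor that did not pass (r = 0.18, rho = 0.20, permutation p = 0.308, adjusted 0.333; 0.022 and 0.12 within the series, 0.21 without the 2 farthest). By genotype, 4 of the 11 markers were lower and 0 higher as the mean of the 4 days (17.3% and 19.2% of all tested genes), with a median log2 fold change of -0.26 (also -0.26 for the 9 factors), and the 4 were Alb (-0.46), Ttr (-0.40), Hpd (-0.67), and Cyp2e1 (-0.67).

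Markers of bile duct and oval cells ran the other way. As the mean of the 4 days, 14 of 15 were higher in HNKO and 0 lower, beside the same 19.2% and 17.3% of all tested genes. The 4 with the smallest p were Spp1, Cftr, Cldn4, and Ncam1, with log2 fold changes of 2.71, 2.92, 3.56, and 2.25, and the summed CPM of all 15 was between 136 and 192 in WT and between 248 and 1205 in HNKO libraries. Their mean had r = -0.73 (rho -0.64) with Prox1 within groups (permutation p = 0.000110, adjusted 0.00054; -0.59 and -0.83 within the series, -0.64 without the 2 farthest) and r = -0.61 (rho -0.55) with Hnf4a (permutation p = 0.000870, adjusted 0.00196; -0.72 and -0.71 within the series, -0.59 without the 2 farthest). Cebpa (r = -0.59, rho = -0.46, permutation p = 0.00163, adjusted 0.00297; -0.33 and -0.71 within the series, -0.53 without the 2 farthest) and Nr5a2 (r = -0.58, rho = -0.59, permutation p = 0.00277, adjusted 0.00415; -0.58 and -0.62 within the series, -0.65 without the 2 farthest) passed as well, so that 4 of 9 factors were lower in livers with higher bile duct markers, where 1.85% of the tested genes had an r at or below that of the weakest of the 4. These 4 also passed with the series removed, or 3 by rho, where Cebpa did not (rho = -0.55, adjusted permutation p = 0.0562). The genotype difference of Prox1 was 0.035.

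Other cell types were counted in the same way, against the same shares of all genes. Of 10 stellate cell and myofibroblast markers, 8 were higher and 1, Reln, was lower in HNKO (-0.21), with Col1a1 at 2.74, and summed CPM was between 533 and 692 in WT and between 468 and 1505 in HNKO. Of 10 macrophage markers, 7 were higher, with Ccr2 at 2.21 and summed CPM of 325 to 797 and 430 to 1214, and of 8 tested lymphocyte and neutrophil markers, 3 were higher, S100a9 (1.82), Ptprc (0.65), and S100a8 (1.77), with summed CPM of 28.6 to 82.0 and 44.3 to 146. Of 9 endothelial markers, 4 were lower, Oit3 (-0.34), Kdr (-0.27), Dpp4 (-0.17), and Bmp2 (-0.20), with summed CPM of 866 to 1052 and 799 to 977. Of 6 lymphatic markers, which matter for Prox1 as a factor of lymphatic vessels, Pdpn was higher (1.35) and Reln, also on the stellate list, lower, with summed CPM of 261 to 374 and 237 to 356. Acinar pancreas markers were near the floor, with 8 of 9 at a median of 0 in WT and 7 of 9 in HNKO, summed CPM of 9.31 to 28.6 and 4.53 to 35.7, and 1 of 3 tested, Cela1, was lower (-0.49). The part of these cell types in the differences of the 9 factors was not tested.

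Of the 9 factors, 7 also moved with genes of the circadian clock, or 4 with the series of library numbers removed (2 by rho). A clock score, the signed mean of Arntl, Npas2, Nr1d1, Dbp, Per3, and Ciart, had r = 0.72 (rho 0.70) with Nr1i3 within groups (permutation p = 1e-05, the smallest they can give, adjusted 0.00027), r = 0.66 (rho 0.66) with Cebpa (permutation p = 0.000140, adjusted 0.00054), and r = 0.60 (rho 0.63) with Onecut1 (permutation p = 0.000390, adjusted 0.00105). Without the 2 farthest libraries the values were 0.68, 0.52, and 0.59, and within the series 0.78 and 0.75, 0.57 and 0.73, and 0.42 and 0.49. Hnf4a, Foxa1, Foxa2, and Prox1 passed as well, with r between 0.45 and 0.53, so that 7 of 9 factors passed after adjustment over the 27 tests, and 12.5% of the tested genes had an r at or above that of the weakest of the 7. With the series removed as well, Nr1i3, Cebpa, Hnf4a, and Foxa2 passed, and Onecut1 (r = 0.40), Foxa1 (0.49), and Prox1 (0.37) did not (adjusted permutation p = 0.113, 0.113, and 0.0599). By rho, 2 passed there, Nr1i3 and Cebpa, and Hnf4a and Foxa2 did not (adjusted permutation p = 0.0833 and 0.0976). Within the first series r was 0.16 for Foxa1, 0.18 for Foxa2, and 0.22 for Prox1. Foxa3 did not pass (r = 0.24, rho 0.28, permutation p = 0.149, adjusted 0.183; 0.27 and 0.089 within the series, 0.25 without the 2 farthest), nor did Nr5a2 (r = 0.16, rho 0.26, permutation p = 0.371, adjusted 0.374; -0.20 and 0.56 within the series, 0.20 without the 2 farthest).

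At day 3 the score was between -0.97 and 0.47 in WT (mean -0.33) and between -1.53 and -0.71 in HNKO (mean -1.16). At day 6 it spread from -1.75 to 2.20 in WT (mean 0.27) and from -2.37 to 1.54 in HNKO (mean 0.31). At day 12 WT was between -2.04 and 2.18 (mean -0.85) and HNKO between -1.13 and 1.66 (mean 0.35), the reverse of the order at day 3. At day 21 the score was between 0.57 and 1.47 in WT and between -0.33 and 1.39 in HNKO. With the clock score as a covariate, Cebpa and Foxa1 were called beside Nr1i3 at day 6, Foxa1 and Nr1i3 at day 12 (log2 fold changes -0.38 and -1.001, with Cebpa turning from 0.0080 to -0.14), and Nr1i3 at day 21, and Hnf4a joined the 6 factors called as the mean of the 4 days (-0.17, adjusted p = 0.0313). Of 19 clock and PAR bZIP factors, 5 were lower in HNKO as the mean of the 4 days and 0 higher (17.3% and 19.2% of all tested genes), among them Cry1 (-0.50), Hlf (-0.51), Rora (-0.15), and Cry2 (-0.30), and the median of the list was -0.20.

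Other liver transcription factors were read from a list of 30. Of these, 10 were lower and 3 higher as the mean of the 4 days, where 17.3% and 19.2% of all tested genes were, with a median log2 fold change of -0.15. Tbx3 (-0.48, SE 0.11, adjusted p = 0.000731) and the coactivator gene Ppargc1a (-0.35, SE 0.094, adjusted p = 0.00392) were lower. Cebpd, a C/EBP gene of the acute phase, was higher (0.59, SE 0.14, adjusted p = 0.000991), as were Bhlha15 (0.85) and Gata6 (0.21). Bhlha15 was at a low average log2 CPM of -0.70. At days 3, 6, 12, and 21 the list held 1, 2, 0, and 0 called genes, at each day a smaller share than the 4.66%, 12.8%, 7.82%, and 3.12% of all tested genes.

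Known target genes were described by the factor that is held to act on them, and several genes are on more than 1 list or among the hepatocyte markers. Of 25 CAR targets, 13 were lower in HNKO as the mean of the 4 days and 2 higher (17.3% and 19.2% of all tested genes, as for each list that follows), with a median log2 fold change of -0.38. The cytochrome P450 genes Cyp2c29 (-0.95, SE 0.13), Cyp2c37 (-1.12, SE 0.20), and Cyp2b9 (-0.73, SE 0.13) and the bilirubin conjugating enzyme gene Ugt1a1 (-0.69, SE 0.13) were lower (adjusted p = 1.14e-06, 3.42e-05, 2.38e-05, and 9.25e-05, edgeR). The 2 that were higher were the glutathione transferase genes Gsta1 (3.11) and Gstm3 (0.57). Gsta1 was near the floor, at an average log2 CPM of -1.74. At day 6, where Nr1i3 itself was called, 8 were lower and 1 higher, where 4.37% and 8.42% of all genes were. At days 3 and 21, 1 was lower (1.71% and 0.916% of all genes), and at day 12, 1 was lower and 1 higher (3.27% and 4.56%). Cyp2c29 was called at 3 of the 4 days.

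Of 22 HNF4A targets, 13 were lower and 0 higher, with a median of -0.33. Apoa2 (-0.54), the lipoprotein assembly gene Mttp (-0.49), the carboxylesterase gene Ces2a (-0.78), and the bile acid importer gene Slc10a1 (-0.71) had the smallest p-values. Hnf4a itself was not called. Of 15 C/EBPA targets, 5 were lower and 0 higher (median -0.29), with Alb (-0.46), Bdh1 (-0.36), Ugp2 (-0.40), F9 (-0.18), and Ppargc1b (-0.43). Of 14 FOXA targets, 6 were lower and 0 higher (median -0.22), with the sulfotransferase gene Sult2a1 at -3.47 (SE 0.55, adjusted p = 8.80e-06) and Abcc2 at -0.33.

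Of 14 LRH-1 targets, 5 were lower and 0 higher (median -0.081), Slc10a1, Aldh1b1 (-0.39), the sterol exporter genes Abcg8 (-0.69) and Abcg5 (-0.43) and the bile acid 12α-hydroxylase gene Cyp8b1 (-0.66). Of 11 partners and targets of HNF6 and PROX1, 5 were lower and 1 higher (median -0.15), with Cyp2c39 (-0.85), Pfkfb1 (-0.34), Cyp2c38 (-0.39), Hdac3 (-0.11), and Lrpprc (-0.17) lower and the cell cycle inhibitor gene Cdkn1a higher (1.23). Of 8 tested genes of fetal liver and dedifferentiation, 5 were higher and 0 lower (median 0.98), namely Lgals3 (1.13), Cd24a (2.07), Anxa5 (1.11), Scd2 (0.84), and H19 (2.52). Afp (0.0086), Gpc3 (0.40), and Ccnd1 (0.34) were not called (adjusted p = 0.974, 0.263, and 0.107, edgeR). For comparison, the median over all tested genes was -0.0064, and the hepatocyte markers, which are no list of targets, had -0.26.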

How the data were processed

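Liver RNA was sequenced from 40 mice, 1 library each. Per the study's methods, ribosomal RNA was depleted with a TruSeq stranded kit, 51-bp paired-end reads were aligned to GRCm38 with STAR 2.7.2b, and the authors counted fragments per gene with featureCounts 1.6.4 on GENCODE M22 and deposited raw counts. Whether strand was used in counting is not given in the sources used here. Libraries 17 and 18 failed quality control in the study and entered only 1 alternative. Every table column was mapped to a sample by its label.

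The counts were fitted in edgeR 4.0.16 (quasi-likelihood, TMM scaling, R 4.3.3) with 1 term per genotype and day over the 38 libraries, after a filter on low counts (minimum count 10, total 15, proportion 0.7). Contrasts were HNKO against WT at each day, their mean, the interaction, the effect of day, and the series of library numbers, and p-values were adjusted by Benjamini-Hochberg over all 20297 genes (threshold 0.05). Levels are log2 CPM with a prior count of 2. Intervals of log2 fold changes use the normal quantile. Correlations used deviations from group means with 100000 permutations within groups, and also within groups and series.

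DESeq2 1.42.0 (with limma 3.58.1 loaded by edgeR), other scalings and filters, a series or clock covariate, and fits without 1 library were the alternatives, of which the mean over days 3, 6, and 12 and the fits within a series were added after seeing the data. The members and lists were chosen with earlier results of these data known. Named genes were the members, the 3 closest and 1 most opposite gene of each, and at most 4 called genes per list by smallest p. The further genes that complete a count of 5 or fewer, and the uncalled fetal liver genes, were named after their values were seen. A few listed genes and 1 searched motif are not reported here. Libraries of a group differed beyond counting noise in all 74 pairs (lowest chi-square per gene 14.0). The p-values measure the spread between mice.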

Additional observations from a re-analysis of the deposited data

Results flagged for a closer look

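In 5 of 63 groups of 4 to 6 libraries, 1 library lay far from the others of its group, where chance flags about 1 in 20 groups. They were Cebpa in WT library 16 of day 12 (8.33 log2 CPM), Foxa2 in WT library 21 of day 21 (5.11), Prox1 in HNKO library 35 of day 12 (7.18), and Nr1i3 in HNKO library 32 of day 12 (6.91) and in HNKO library 29 of day 6 (4.98). Nr1i3 was thus above its group in library 32 and below it in library 29.

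HNKO library 17 of day 21, which failed quality control and is in no comparison, lay above every WT library of its day for 3 factors and below every one for 4. Its log2 CPM was 4.58 for Foxa1, where WT ranged from 3.62 to 3.89, 4.63 for Onecut1, where WT ranged from 3.57 to 4.42, and 8.12 for Prox1, where WT ranged from 7.78 to 8.05, all on the scale of the 40 libraries. It was lower at 7.55 for Cebpa (WT 7.98 to 8.42), 2.60 for Foxa2 (WT 4.53 to 5.12), 3.47 for Foxa3 (WT 4.46 to 5.41), and 6.09 for Nr1i3 (WT 6.31 to 7.08). Library 18, the other failed HNKO library, lay below every WT library for 6 factors, at 7.65 for Cebpa, 3.17 for Foxa1, 4.10 for Foxa2, 7.64 for Prox1, 6.64 for Nr5a2, and 6.18 for Nr1i3, and above every one for none of the 9.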

How the results depend on the processing

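Of the single results of the 9 factors recomputed under other settings, 396 kept their direction and side of the threshold, 12 lost and 9 gained a call, and 6 reversed. With 1 library left out, these were 1668, 11, 16, and 15. The cause was not tested for any of them.

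DESeq2 called 1428 genes at day 3 and 994 at day 21, 16 for the interaction and 1886 for the day effect in WT, and 3 factors at day 3. With all 40 libraries, 331, 1321, 624, and 1350 genes were called at days 3, 6, 12, and 21 and 581 for the day effect in WT, with 0 factors at day 3 and 0 for the day effect in WT, Foxa1 turned to 0.027 at day 21, and Foxa1 (-0.23, adjusted p = 0.0571, edgeR) and Foxa3 (0.25, adjusted p = 0.139) lost their mean calls. Over days 3, 6, and 12 alone, Foxa3 lost its call (0.31, adjusted p = 0.0545, edgeR). Fits of the 2 groups of a day gave 420, 1325, and 867 genes at days 3, 6, and 12, with 0 factors at day 3 and 1 at day 21 (Nr1i3). With the clock score as covariate, 3963 genes were called at day 12, 975 at day 21, 2 for the interaction, 3180 for the day effect in WT, and 3397 in HNKO, with 3, 2, and 1 factors at days 6, 12, and 21 and 2 for the day effect in HNKO, and Cebpa (-0.14) and Onecut1 (-0.26) reversed at day 12. With the series as covariate, the day effect in WT held 2224 genes, and Prox1 at day 21 (0.049) and the Onecut1 mean (0.11) reversed. Without the filter, 0 factors had a day effect in WT and 0 in HNKO. Library numbers 1 to 21 gave 4340 genes for the mean, numbers 22 to 41 gave 3545 with 1 factor (Nr5a2), and Onecut1 reversed in the latter (0.37).

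With 1 library left out, called genes ranged from 322 (without HNKO 23) to 1668 (without HNKO 22) at day 3, 1126 (without HNKO 29) to 3027 (without HNKO 31) at day 6, 852 to 1773 at day 12, 13 (without HNKO 37) to 915 at day 21, 5954 to 7581 for the mean, 0 to 3 for the interaction, 811 to 1385 for the day effect in WT, and 1183 to 1770 in HNKO. Called factors ranged from 0 to 3 at days 3 and 6, 0 to 1 at day 12, 0 to 0 at day 21, 5 to 7 for the mean, and 0 to 1 for both day effects. Log2 fold changes spanned 0 for Onecut1 at day 3 (-0.75 to 0.17), day 6 (-0.73 to 0.26), and the mean (-0.18 to 0.074), for Hnf4a at day 6 (-0.16 to 0.017), for Prox1 at day 6 (-0.021 to 0.21) and day 21 (-0.18 to 0.087), and for Cebpa at day 12 (-0.062 to 0.12).

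Permuted within groups and series, 10 of the 36 pairs of factors passed in place of 17. No paired analysis was possible because the library numbers are unique, so that no groups share a replicate number. The lowest count of a factor in a library was 130, for Onecut1, and day 21 had 3 HNKO libraries.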
